A study of Mus musculus with 9 samples.

Results

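Aspm, Wdr62, Stil, Cenpj, Cep152, Cep135, Cdk5rap2 and Mcph1 are the mouse counterparts of genes that cause primary microcephaly in humans when mutated and whose proteins act at the centrosome or in its cycle. They were found in the table by gene symbol, and each of the 8 has 1 row among the 21210 genes of the deposited table. All 8 were among the 15828 genes that passed a filter on low values, a normalised read count of at least 10 in at least 3 libraries. They were followed across 9 libraries of poly-A RNA, sequenced strand-specifically, made from C57BL/6 mice on embryonic day 14.5, from the lateral part of the cortex. All embryos had the genotype that the labels write as Btg2GFP/Tubb3GFP, that is, reporters of Btg2, a gene of progenitors about to make neurons, and of Tubb3, a neuronal beta-tubulin. The titles name red fluorescence for the Btg2 gate. Proliferating progenitors were sorted as cells with no red, differentiating progenitors as red cells, and neurons as cells green for Tubb3, with 3 libraries each. Each library was a pool of sorted cells from more than 3 embryos of different litters, with no treatment named in the labels, so single embryos cannot be followed. The gate of the proliferating progenitors is the absence of a colour, and no positive marker was used for it.

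The centrosome is the main organiser of microtubules in an animal cell, a pair of centrioles embedded in pericentriolar material. In each cell cycle the centrioles are copied, and in mitosis the duplicated centrosomes form the poles of the spindle. Radial glia, the stem cells of the embryonic cortex, divide at the ventricular surface, and loss of several genes of this family depletes cortical progenitors in mice and leaves a small cortex. Neurons no longer divide and copy no centrioles.

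Normalised totals lay between 17531558 and 18201880 in proliferating progenitors, between 18420135 and 19077173 in differentiating progenitors, and between 21442620 and 22076409 in neurons. Summed markers were highest in the group of their labelled cell type. Btg2 and Tubb3, the genes of the sorting gates, are among these markers, so that part of the match was fixed by the sort. The summed level of 9 radial glia markers ran from 107682 to 125023 in proliferating progenitors, from 49524 to 72002 in differentiating progenitors and from 6228 to 7580 in neurons. That of 7 intermediate progenitor markers ran from 23268 to 27706, from 62115 to 78565 and from 13435 to 17407 in the same order, and that of 8 neuronal markers from 7022 to 11647, from 46057 to 54514 and from 175698 to 211062. Single markers did not all follow their sum. The radial glia marker Prom1 averaged 3240 in proliferating and 3086 in differentiating progenitors, with overlap. The intermediate progenitor markers Insm1, Gadd45g, Mfap4 and Elavl4 had higher means in neurons than in proliferating progenitors (3554 against 1077 for Elavl4), while Eomes, Btg2 and Neurog2 had lower ones. Other cells were also seen. The sum of 10 red blood cell genes reached 103726 to 259037 in proliferating progenitors, against 226 to 2097 in differentiating progenitors and 200 to 284 in neurons, and that of 8 ventral interneuron markers reached 7350 to 8556 in neurons, against 444 to 2903 and 87 to 985 in differentiating and proliferating progenitors. Smaller sums came from 10 endothelial and mural markers (75 to 119 in neurons, 374 to 403 in differentiating and 714 to 1421 in proliferating progenitors), 10 microglia markers (31 to 40, 100 to 144 and 198 to 272 in that order) and 7 markers of meninges (11 to 48, 81 to 171 and 244 to 2965). Of these, 2 microglia and 2 meninges markers were at 0 in every neuron library, and 1 meninges marker in every differentiating progenitor library. The parts of these cells in the results below were not tested.

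All 8 microcephaly genes fell in neurons relative to differentiating progenitors, but by very different amounts, from 1.37-fold for Mcph1 to 37.0-fold for Stil. The call of Mcph1 was the weak one: it held in 11 of 19 alternative fits (limma adjusted p 0.00622 to 0.131) and was not made in the authors' deposited table. Between the progenitor groups, 2 of the 8 genes were called: Cenpj, a builder of centriolar microtubules, and Cdk5rap2, a scaffold of the pericentriolar material. Both rose in differentiating progenitors, but the authors' deposited table called only Cenpj of these 2. The count of 2 is near the 24.9% of all genes called there and shows nothing about the 8 as a set. Relative to proliferating progenitors, 6 genes fell in neurons. The exceptions were Cenpj, at nearly equal means in both, and Mcph1, a regulator of chromosome condensation. Mcph1 had a lower mean in neurons and was called lower there in 4 of 19 alternative fits, the one with the replicate number as a block among them. Values are normalised read counts, changes are log2 differences of log2(value + 1) ± SE from limma over all 9 libraries, and a gene is called where the p adjusted over all 15828 genes by Benjamini-Hochberg is under 0.05.

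In neurons against differentiating progenitors 0 of the 8 were called higher (0 at an unadjusted p under 0.05, and 0 in the authors' deposited table) and 8 lower, where 27.6% of all genes were called higher, 26.4% lower and 54.0% in either direction. The median log2 change of the 8 was -1.47, against -0.01 over all genes tested. In differentiating against proliferating progenitors 2 were called higher and 0 lower (0 at an unadjusted p under 0.05, and 0 in the authors' deposited table), where 13.8% of all genes were called higher, 11.1% lower and 24.9% in either direction, with medians of 0.17 for the 8 and -0.02 for all genes. With the replicate number as a block the share of all genes called higher grew to 24.0%, and the same 2 genes were called. In neurons against proliferating progenitors 0 were called higher (0 at an unadjusted p under 0.05, and 0 in the authors' deposited table) and 6 lower, where 32.2% of all genes were called higher, 31.1% lower and 63.3% in either direction, with medians of -1.49 and -0.02. With the block 7 were lower, where 39.5% of all genes were. Scaling each library to an equal total moved the median of all genes to -0.22 for neurons against differentiating progenitors and to -0.30 for neurons against proliferating progenitors. It turned the split of called genes to 3383 higher and 5588 lower in the first of these, against 4368 and 4183, and to 3902 and 6608 in the second, against 5099 and 4924. In differentiating against proliferating progenitors it gave 1884 higher and 2255 lower, against 2186 and 1758, so that 45.5% of the calls were higher in place of 55.4%. Of the 8 genes, 8 were then called lower in neurons than in proliferating progenitors, where 41.7% of all genes were. In these bulk libraries fewer cells of a type and less RNA per cell cannot be told apart.

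The libraries of both groups did not overlap for 8 of the 8 genes in neurons against differentiating progenitors, all lower, where this held for 29.5% of all genes, and for 6 in neurons against proliferating progenitors, where 33.5% of all genes were lower without overlap. In differentiating against proliferating progenitors 3 of the 8, Aspm, Cdk5rap2 and Cenpj, were higher without overlap, where 18.9% of all genes were. The authors' deposited table, at its adjusted p of at most 0.05, held 1 of the 8 as higher in differentiating than proliferating progenitors (7.62% of all 21210 genes), 7 as lower in neurons than differentiating progenitors (16.6%) and 5 as lower in neurons than proliferating progenitors (20.9%). Unlike the other shares given here, these include the genes that did not pass the filter on low values, which all of the 8 passed. Whether the second step of the lineage differed from the first was tested as the change in neurons over differentiating progenitors minus the change in differentiating over proliferating progenitors. This difference was negative and called for 7 of the 8, where 16.2% of all genes were called lower, and with the replicate block for 8, where 27.0% were. The gene that joined with the block was Mcph1 (log2 difference -0.56, limma adjusted p = 0.187 without the block and 0.0486 with it).

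**Figure D1:**
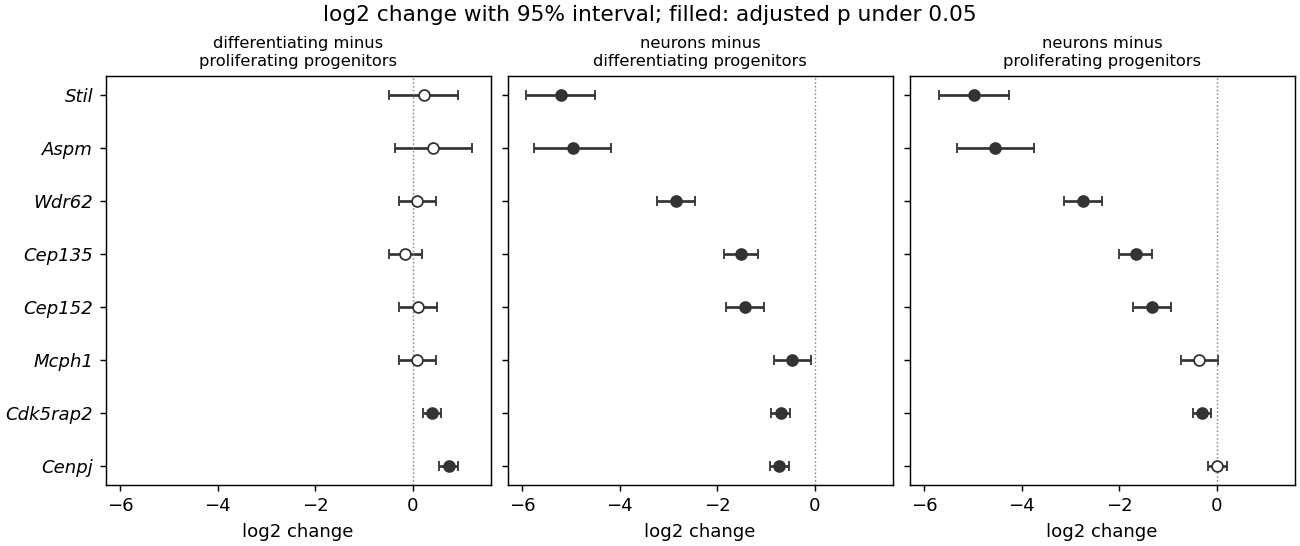
Change of each microcephaly gene in the 3 comparisons, as a log2 change (x axis) with its 95% interval, filled where the limma adjusted p is under 0.05. The 8 genes spread from -0.46 to -5.21 in neurons against differentiating progenitors, while between the progenitor groups all lie between -0.15 and 0.74.

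Sequences around the start sites of 4 of the genes are shown. Aspm and Stil were taken because they kept the least in neurons. Cenpj and Cdk5rap2 were taken because they were called higher in differentiating progenitors than in each of the other groups. The sequences run from 250 bases before to 50 bases after the start in RefSeq on GRCm38.p6, and 7 of the 8 genes had such a sequence. Capitals mark CCAAT, the box that nuclear factor Y binds, TTTGAA, the cell cycle genes homology region bound by the DREAM and B-Myb complexes, and TTTCCCG, a form of the E2F site, each on either strand, so that CCAAT on the opposite strand reads ATTGG. No capitals overlap each other.
Aspm, chr1:139454523-139454822, plus strand: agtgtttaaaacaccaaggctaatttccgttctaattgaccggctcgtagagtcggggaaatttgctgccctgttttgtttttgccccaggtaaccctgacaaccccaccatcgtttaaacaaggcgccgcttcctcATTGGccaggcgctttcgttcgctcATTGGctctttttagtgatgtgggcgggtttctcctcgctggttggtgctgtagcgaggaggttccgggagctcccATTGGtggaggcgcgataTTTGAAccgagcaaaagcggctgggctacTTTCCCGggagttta
Stil, chr4:114999868-115000167, plus strand: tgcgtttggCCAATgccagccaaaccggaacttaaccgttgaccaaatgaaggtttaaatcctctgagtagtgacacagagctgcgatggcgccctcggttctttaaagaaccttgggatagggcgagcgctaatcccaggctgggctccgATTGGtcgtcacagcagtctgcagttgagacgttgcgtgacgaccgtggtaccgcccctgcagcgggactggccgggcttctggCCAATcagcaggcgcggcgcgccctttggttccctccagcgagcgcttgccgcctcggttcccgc
Cenpj, chr14:56571797-56572096, minus strand: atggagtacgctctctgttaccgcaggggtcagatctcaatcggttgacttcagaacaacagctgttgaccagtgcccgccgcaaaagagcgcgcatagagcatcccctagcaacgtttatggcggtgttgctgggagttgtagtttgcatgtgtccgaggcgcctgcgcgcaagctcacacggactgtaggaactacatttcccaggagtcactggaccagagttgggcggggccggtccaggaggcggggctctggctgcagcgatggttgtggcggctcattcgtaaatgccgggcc
Cdk5rap2, chr4:70410386-70410685, minus strand: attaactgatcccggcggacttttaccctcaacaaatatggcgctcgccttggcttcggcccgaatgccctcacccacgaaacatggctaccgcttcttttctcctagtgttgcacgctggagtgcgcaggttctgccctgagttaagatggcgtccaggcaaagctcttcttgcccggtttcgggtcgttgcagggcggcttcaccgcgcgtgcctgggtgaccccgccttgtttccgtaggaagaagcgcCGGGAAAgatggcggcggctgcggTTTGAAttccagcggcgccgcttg

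The Aspm sequence held CCAAT 3 times on the opposite strand, at -113 to -109, -88 to -84 and -12 to -8 from the start, with TTTGAA at 7 to 12 and TTTCCCG at 36 to 42. The Stil sequence also held CCAAT 3 times, at -241 to -237, -99 to -95 and -15 to -11, and none of the other motifs. In the Cenpj sequence no searched motif was found, and in that of Cdk5rap2 there was no CCAAT, with TTTCCCG on the opposite strand at 3 to 9 and TTTGAA at 27 to 32. Wdr62 and Cep152, which are not printed, held CCAAT 3 times in each promoter and Cep135 held it 1 time. The 7 genes have 8 promoters in the table, since Wdr62 has 2 that overlap and hold the same motifs. Counted by promoter, 5 of the 8 held CCAAT at least 3 times, where 3.37% of all 32851 promoters of this length did, and 6 of the 8 held it at all, where 37.4% did. TTTGAA was in 2 of the 8 (17.9% of all promoters), TTCGAA, a variant of it, in 1 (1.56%), and TTTCCCG in 4 (3.39%). TTTGGCG and TTTCGCG, other E2F forms, were in 0 of the 8 (1.56% and 0.849% of all). A match of letters is a description of these windows and shows no binding.

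Among spindle pole genes, Aspm and Wdr62 fell steeply in neurons and were not called between the progenitor groups. Aspm (ENSMUSG00000033952, chromosome 1) encodes a large calmodulin-binding protein of microtubule minus ends at the spindle pole. Libraries 1 to 3 held 3501, 3745 and 3939 normalised reads of it for proliferating progenitors, 6306, 4107 and 4800 for differentiating progenitors, and 300, 135 and 98 for neurons. Every differentiating progenitor library lay above every proliferating one, with library 1 far above the others, and every neuron library lay far below both. The means were 5071 ± 1124 in differentiating and 3728 ± 219 in proliferating progenitors (SD, n = 3 each). The difference was not called (log2 change 0.42 ± 0.35, limma adjusted p = 0.454). This SE rests on 1 spread shared by all 3 groups, so the scatter of the neuron libraries enters it. With replicates 2 and 3 only the change was 0.21 ± 0.14 (limma adjusted p = 0.292). Within the pairs of equal replicate number it was 0.85, 0.13 and 0.29, and 0 of 19 alternative fits called it. In neurons the mean was 178 ± 108 (n = 3), 31.3-fold lower than in differentiating progenitors (log2 change -4.97 ± 0.35, limma adjusted p = 2.72e-06). Neurons kept 4.77% of the mean of proliferating progenitors, or 3.12% without neuron library 1.

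Neuron library 1 was also the highest of its group in mitotic RNA: 20 G2/M genes summed to 4427, 2153 and 1971 in neurons, against 99294, 76626 and 82250 in differentiating and 65447, 74565 and 74818 in proliferating progenitors. The order of the 3 differentiating progenitor libraries for Aspm was also that of their G2/M sums. The part of dividing cells in these values was not tested.

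Wdr62 (ENSMUSG00000037020, chromosome 7) encodes a scaffold of the mitotic spindle pole that binds JNK kinases. Proliferating progenitors had 769, 1018 and 1270, differentiating progenitors 1081, 970 and 1167, and neurons 149, 151 and 144. The progenitor groups overlapped and the neuron libraries were nearly equal, at 148 ± 3.6 (n = 3), which is 14.5% of the mean of 1019 ± 251 in proliferating progenitors (n = 3). Relative to differentiating progenitors, with 1073 ± 98.8 (n = 3), it was 7.19-fold lower in neurons (log2 change -2.85 ± 0.17, limma adjusted p = 9.58e-07). Between the progenitor groups the log2 change was 0.10 ± 0.17 (limma adjusted p = 0.758), with a 95% interval of -0.28 to 0.48. Exons of Thap8 on the opposite strand share 264 bases with those of Wdr62 in GENCODE M21, and Thap8 itself averaged 1.7 in neurons, 7.7 in differentiating and 10.3 in proliferating progenitors. The sources used here give no strand setting for the authors' counting, so reads of both genes could be mixed.

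The centriole duplication genes followed 3 courses in neurons: Stil fell steeply, Cep152 and Cep135 fell by less, and Cenpj fell to a mean close to that of proliferating progenitors. Stil (ENSMUSG00000028718, chromosome 4), the partner of the kinase Plk4 that starts a new centriole, had 1243, 1474 and 1779 reads in proliferating progenitors. Differentiating progenitors had 1937, 1425 and 1897, and neurons 81, 35 and 34. The progenitor groups overlapped, and neuron library 1 was again the highest neuron library. In neurons Stil averaged 50 ± 26.9, against 1753 ± 285 in differentiating progenitors (n = 3 each), which was 37.0-fold lower (log2 change -5.21 ± 0.31, limma adjusted p = 1.04e-06). Neurons kept 3.34% of the proliferating progenitor mean of 1499 ± 269 (n = 3), or 2.30% without neuron library 1. Differentiating against proliferating progenitors gave a log2 change of 0.23 ± 0.31 (limma adjusted p = 0.688).

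Cenpj (ENSMUSG00000064128, chromosome 14), also known as CPAP, binds tubulin and lengthens new centrioles. Proliferating progenitors had 808, 875 and 844, differentiating progenitors 1355, 1389 and 1473, and neurons 804, 927 and 827. The differentiating progenitor libraries lay above all 6 others, and the other 2 groups overlapped. Cenpj rose to 1406 ± 60.7 in differentiating progenitors, against 842 ± 33.5 in proliferating progenitors (n = 3 each; log2 change 0.74 ± 0.09, limma adjusted p = 0.000359). It fell to 853 ± 65.4 in neurons (n = 3; log2 change against differentiating progenitors -0.72 ± 0.09, limma adjusted p = 8.74e-05). In neurons against proliferating progenitors the log2 change was 0.02 ± 0.09 (limma adjusted p = 0.895), with a 95% interval of -0.18 to 0.21. With libraries scaled to equal totals it was -0.27 and called (limma adjusted p = 0.0145), in a comparison where that scaling moved the median of all genes to -0.30, and it was -0.014 without proliferating progenitor library 1 and -0.046 without neuron library 2.

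Cep152 (ENSMUSG00000068394, chromosome 2) recruits Plk4 to the mother centriole. Proliferating progenitors had 951, 1096 and 1453, differentiating progenitors 1109, 1186 and 1427, and neurons 399, 493 and 494. The progenitor groups overlapped over almost their whole range, and the neuron libraries lay below both. In neurons it averaged 462 ± 54.6, against 1241 ± 165.9 in differentiating progenitors (n = 3 each; log2 change -1.42 ± 0.17, limma adjusted p = 9.19e-05), and neurons kept 39.6% of the mean in proliferating progenitors, 1167 ± 258 (n = 3).

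Cep135 (ENSMUSG00000036403, chromosome 5), a protein of the centriolar cartwheel, had 938, 1206 and 1349 reads in proliferating progenitors. In differentiating progenitors there were 930, 1085 and 1112, and in neurons 316, 383 and 393. The progenitor groups overlapped and the neuron libraries lay below both. It had a lower mean in differentiating than in proliferating progenitors, the single gene of the 8 with that direction with all libraries, but the difference did not pass the threshold (1042 ± 98.2 against 1164 ± 209, n = 3 each; log2 change -0.15 ± 0.15, limma adjusted p = 0.564). Within the pairs of equal replicate number the log2 difference was -0.01, -0.15 and -0.28, lower in 3 of 3, and with the replicate block the change was -0.15 ± 0.067 (limma adjusted p = 0.103). In neurons it averaged 364 ± 41.9 (n = 3), 2.86-fold lower than in differentiating progenitors (log2 change -1.52 ± 0.15, limma adjusted p = 2.79e-05). Neurons kept 31.3% of the mean in proliferating progenitors.

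Cdk5rap2 and Mcph1 kept most of their level in neurons. Cdk5rap2 (ENSMUSG00000039298, chromosome 4) anchors and activates gamma-tubulin ring complexes in the pericentriolar material. Proliferating progenitors had 3634, 4257 and 4283, differentiating progenitors 5522, 5159 and 5317, and neurons 3154, 3384 and 3312. The 3 groups did not overlap, with neurons lowest and differentiating progenitors highest. It rose to 5333 ± 182 in differentiating progenitors, against 4058 ± 367 in proliferating progenitors (n = 3 each; log2 change 0.40 ± 0.08, limma adjusted p = 0.00836), while the authors' deposited table gave this comparison a fold of 1.31 with an adjusted p of 0.21. In neurons the mean was 3283 ± 118 (n = 3; log2 change against differentiating progenitors -0.70 ± 0.08, limma adjusted p = 9.03e-05), or 80.9% of that in proliferating progenitors (log2 change -0.30 ± 0.08, limma adjusted p = 0.0111). Exons of the pseudogene Ywhaq-ps3 on the same strand share 365 bases with Cdk5rap2, and the pseudogene averaged 30 in neurons, 33 in differentiating and 26 in proliferating progenitors. Cenpj and Cdk5rap2 were both higher in differentiating progenitors than in either other group, past the threshold in both comparisons, which held for 349 of all genes tested (2.2%).

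Mcph1 (ENSMUSG00000039842, chromosome 8), microcephalin, holds condensin II in check before mitosis and acts in the DNA damage checkpoint. Proliferating progenitors had 341, 503 and 491, differentiating progenitors 484, 442 and 485, and neurons 296, 373 and 363. The progenitor groups overlapped, and the neuron libraries lay below all differentiating progenitor libraries but not below proliferating progenitor library 1. In neurons the mean was 344 ± 41.9, against 470 ± 24.5 in differentiating progenitors (n = 3 each), a difference just past the threshold (log2 change -0.46 ± 0.17, limma adjusted p = 0.0431). Without 1 library the adjusted p was 0.0937, 0.0655 or 0.108 for differentiating progenitor library 1, 2 or 3, and 0.131, 0.0580 or 0.0692 for neuron library 1, 2 or 3, so the call ended without any of these 6. The change itself was larger without differentiating progenitor library 2 (-0.50) or neuron library 2 (-0.52) or 3 (-0.50), and smaller without the others. The call also ended with no filter on low values (0.0505) and with no intensity trend (0.0539). It held with the replicate block (limma adjusted p = 0.00681) and with replicates 2 and 3 only (limma adjusted p = 0.0207). Within the pairs of equal replicate number the log2 difference was -0.71, -0.24 and -0.42. In neurons against proliferating progenitors, with 445 ± 90.3 (n = 3), the log2 change was -0.36 ± 0.17 (limma adjusted p = 0.0896). It was called with the replicate block (limma adjusted p = 0.0208) and without proliferating progenitor library 1 (log2 change -0.54, limma adjusted p = 0.00746), with replicates 2 and 3 only (-0.43, limma adjusted p = 0.0046) and with total-sum scaling (-0.64, limma adjusted p = 0.00631). The authors' deposited table called neither, with adjusted p-values of 0.1 and 0.11. An antisense gene, Gm16725, shares 190 exon bases with Mcph1 in GENCODE M21 and has no value here.

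**Figure D2:**
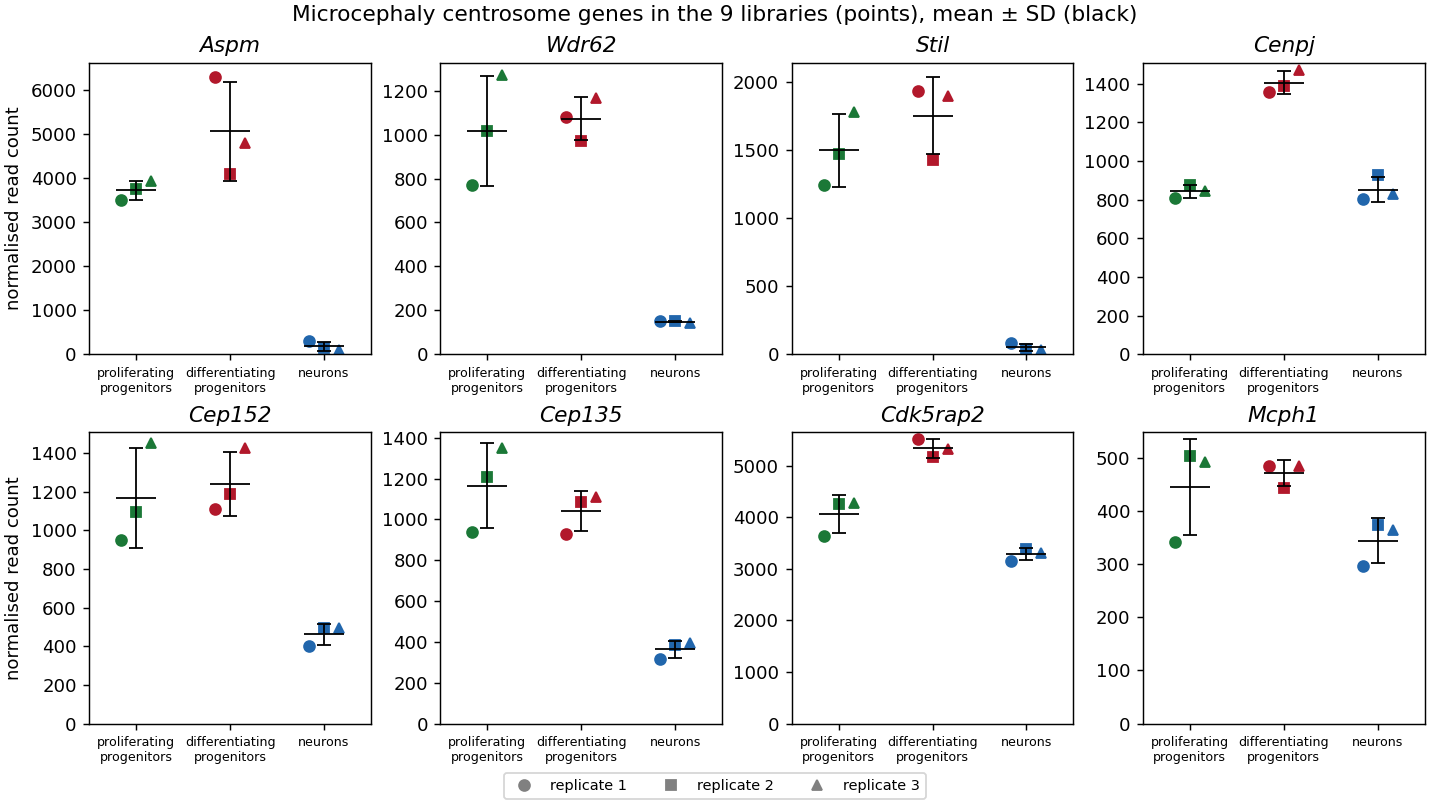
Normalised read count (y axis, from 0) of each of the 8 genes in the 9 libraries, with point shape for the replicate number and black marks for the mean ± SD of 3 libraries. Stil runs from 34 to 81 in neurons and Aspm from 98 to 300, while Cenpj lies between 804 and 927 in both neurons and proliferating progenitors and between 1355 and 1473 in differentiating progenitors.

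Proliferating progenitor library 1 was the lowest of its group for 8 of the 8 genes, as it was for 39.7% of all genes tested. The directions of Mcph1, Wdr62 and Cep152 in differentiating against proliferating progenitors rested on it. Without this library their log2 changes were -0.081, -0.088 and -0.033, against 0.10 for each with all libraries, and they were not called in either case. That of Cep152 was also -0.0019 without differentiating progenitor library 3. The 8 genes summed to 12185, 14174 and 15408 normalised reads in the proliferating progenitors' libraries, to 18724, 15763 and 17678 in those of differentiating progenitors, and to 5499, 5881 and 5665 in those of neurons, where every library lay below all progenitor libraries.

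Levels of different genes were compared per kilobase of gene length, without a test. In proliferating progenitors Aspm (324 per kb) and Cdk5rap2 (312 per kb) led, followed by Stil (257), Cep152 (202), Cenpj (193), Wdr62 (177) and Cep135 (162), each overlapping its neighbour in the range of its libraries, and Mcph1 stood apart at 57.0. In differentiating progenitors Aspm (441) and Cdk5rap2 (410) overlapped and stood above Cenpj (322), Stil (300), Cep152 (215) and Wdr62 (187), which formed a chain of overlaps, and Cep135 (145) and Mcph1 (60.3) each stood apart. The order in neurons was a different one: Cdk5rap2 (252), Cenpj (195) and Cep152 (80.1) each stood clear of the next, Cep135 (50.6) and Mcph1 (44.1) overlapped, and Wdr62 (25.8), Aspm (15.5) and Stil (8.57) came last, each overlapping its neighbour. Aspm, first in both progenitor groups, was thus seventh of the 8 in neurons.

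**Figure D3:**
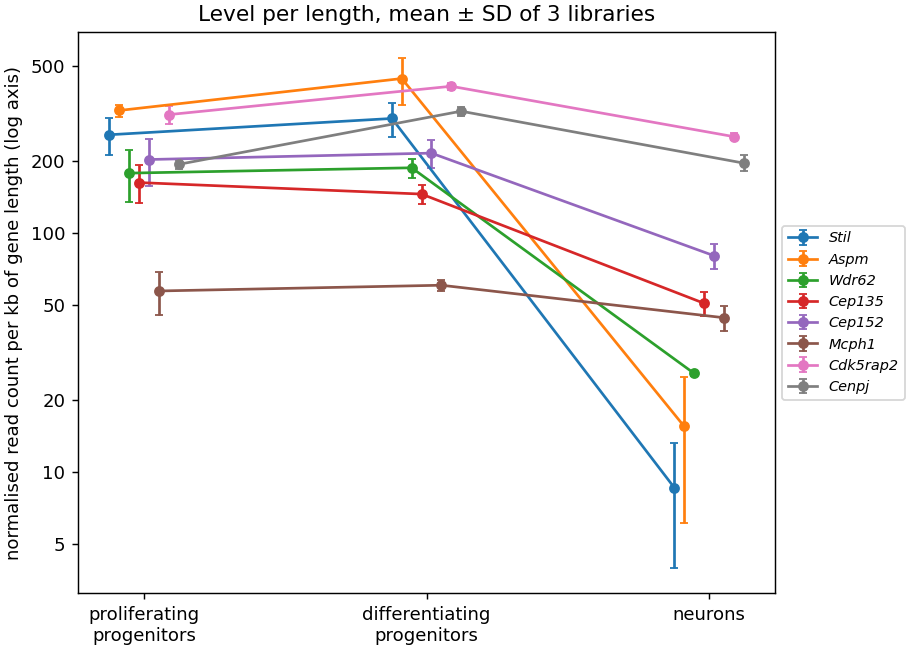
Normalised read count per kilobase of gene length (log y axis), as mean ± SD of 3 libraries, for the 8 genes in the 3 groups. Mcph1 is lowest in both progenitor groups, while Stil (8.57), Aspm (15.5) and Wdr62 (25.8) are the lowest in neurons.

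The genes whose course over the 9 libraries was nearest to that of each member were found by the root mean square difference of log2(value + 1), with each gene centred on its own mean. This is a description without a test, and in it a smaller number is a nearer course. Nearest to Aspm were Cenpf (0.14), a kinetochore protein, and Gtse1 (0.15), a microtubule protein of G2 and mitosis. Stil lay nearest to Aurkb (0.088), the kinase of the chromosomal passenger complex, and Kif11 (0.10), the kinesin that keeps spindle poles apart. Wdr62 lay nearest to Mxd3 (0.098) and Myb (0.12), both transcription factors of dividing cells. Cep152 lay nearest to Emb (0.074), a transmembrane glycoprotein, and Ncapd3 (0.11), a subunit of condensin II, and Cep135 to Larp7 (0.081), a binder of 7SK RNA, and Mcm7 (0.081), a subunit of the replicative helicase. For Mcph1 they were Ccdc41 (0.084), the table's symbol for the centriolar appendage gene Cep83, and Mad1l1 (0.086), a spindle checkpoint gene. Cdk5rap2 was nearest to Kcnip3 (0.074), a calcium-binding protein, and Tnk2 (0.080), a tyrosine kinase. Among those nearest to Cenpj was G2e3 (0.11), a ubiquitin ligase. Among the 8 themselves the nearest pairs were Cep152 with Cep135, Mcph1 with Cdk5rap2 and Cdk5rap2 with Cenpj (0.17 each), followed by Aspm with Stil (0.24).

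The other genes of the pathway were taken from lists, and each list is given by its counts and its median beside the median of all genes. The counts stand beside the shares of all genes called: 27.6% higher and 26.4% lower in neurons against differentiating progenitors, 32.2% and 31.1% in neurons against proliferating progenitors, and 13.8% and 11.1% in differentiating against proliferating progenitors, or 24.0% higher and 3489 of the 15828 genes lower there with the replicate block. A few genes stand in more than 1 list: Sass6, Cep192, Cit, Ncapd2, Ncapd3 and Ncaph. Other primary microcephaly genes mostly fell in neurons too. Of 18 tested, 2 were called higher and 12 lower in neurons than in differentiating progenitors, with a median log2 change of -1.24 against -0.01 over all genes, and in neurons against proliferating progenitors 2 were higher and 14 lower. Kif14, a kinesin of cytokinesis, fell to 40.3 ± 15.7 in neurons, against 1284 ± 158.5 in differentiating progenitors (log2 change -5.02 ± 0.25, limma adjusted p = 3.33e-07). Casc5, the kinetochore protein Knl1 (log2 change -5.16 ± 0.30), the cyclin-dependent kinase Cdk6 (-4.41 ± 0.25) and the condensin I subunit Ncaph (-4.01 ± 0.16) fell too. The Polycomb gene Phc1 (0.55 ± 0.08) and the autophagy scaffold Wdfy3 (0.33 ± 0.10) rose. The call of Wdfy3 ended without differentiating progenitor library 3 (limma adjusted p = 0.0591), without neuron library 2 (0.0624) and with total-sum scaling (0.254).

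In differentiating against proliferating progenitors 0 of these 18 were called higher (1 at an unadjusted p under 0.05, and 1 in the authors' deposited table) and 1 lower, Mfsd2a, the lipid transporter of the blood-brain barrier, and with the replicate block 3 were higher and 3 lower. Mfsd2a averaged 802 ± 75.7 in differentiating and 1318 ± 310 in proliferating progenitors (log2 change -0.69 ± 0.19, limma adjusted p = 0.0259). It was no longer called when proliferating progenitor library 2 or 3 or any 1 differentiating progenitor library was left out (limma adjusted p 0.0505 to 0.0963). Mfsd2a is known to act in endothelial cells. Summed markers of endothelial and mural cells together ran from 374 to 403 in differentiating and from 714 to 1421 in proliferating progenitors. The largest, Pdgfrb, averaged 135 and 399 in that order, while Kdr went the other way (133 and 108) and all others had higher means in proliferating progenitors. In neurons the sum was 75 to 119, where Mfsd2a averaged 755. The part of these cells in the change was not tested.

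Most other centriole duplication genes fell in neurons. Of 20 tested, 1 was called higher and 16 lower in neurons than in differentiating progenitors, with a median of -0.76, and 2 were higher and 12 lower in neurons than in proliferating progenitors. The kinase Plk4, which starts centriole duplication, fell to 105 ± 23.9 in neurons, against 1286 ± 156 in differentiating progenitors (log2 change -3.62 ± 0.17, limma adjusted p = 2.86e-07). Cep76, a brake on repeated duplication (-1.84 ± 0.10), Cep192, the recruiter of Plk4 with Cep152 (-1.53 ± 0.13), and the centriole cap protein Ccp110 (-0.77 ± 0.07) fell as well. Cep120, a partner of Cenpj in centriole lengthening, was the single gene of the list that rose (0.36 ± 0.10, limma adjusted p = 0.0109), but not with total-sum scaling (0.14, limma adjusted p = 0.205). In differentiating against proliferating progenitors 4 were higher and 1 lower, and with the replicate block 9 and 3. Cep120 rose to 1876 ± 225 in differentiating progenitors, against 1047 ± 39.7 in proliferating progenitors (log2 change 0.83 ± 0.10, limma adjusted p = 0.000334), and Cep295, which turns new centrioles into centrosomes, rose as well (0.42 ± 0.08, limma adjusted p = 0.00582). Poc5, a gene of centriole elongation, rose (0.52 ± 0.14), but was not called without proliferating progenitor library 1 or 3 or differentiating progenitor library 2 or 3 (limma adjusted p 0.0676 to 0.0979). The centrin gene Cetn2 fell (-0.53 ± 0.15), but was not called without library 1 or 2 of the proliferating or library 2 or 3 of the differentiating progenitors (limma adjusted p 0.0775 to 0.0978).

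Pericentriolar material genes held members of both directions. Of 22 tested, 4 were called higher and 11 lower in neurons than in differentiating progenitors, with a median of -0.39, and 4 and 12 in neurons against proliferating progenitors. Nde1, a dynein partner whose loss also gives a small cortex, fell to 148 ± 11.1 in neurons, against 2493 ± 335.1 in differentiating progenitors (log2 change -4.06 ± 0.11, limma adjusted p = 4.7e-08). The centrosomal recruiter of gamma-tubulin Nedd1 (-3.03 ± 0.13) and the spindle protein Tacc3 (-4.36 ± 0.20) fell too. Ndel1, the paralog of Nde1, rose instead (0.51 ± 0.10, limma adjusted p = 0.00194), with Akap9 (0.72 ± 0.10), the anchor of gamma-tubulin at the Golgi, and Tacc2 (0.60 ± 0.07). Tubg2 rose to 285 ± 60.8 in neurons, against 9 ± 1.7 in differentiating progenitors (log2 change 4.83 ± 0.30, limma adjusted p = 1.17e-06). It is nearly identical to Tubg1, so reads could be divided between both genes in the counting. Akap9 also rose in differentiating against proliferating progenitors (0.92 ± 0.10, limma adjusted p = 0.00032), where Tacc1 fell (-1.24 ± 0.19, limma adjusted p = 0.00171), 1 in each direction, and with the replicate block 4 were higher and 5 lower.

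Spindle pole and orientation genes held members of both directions. Of 20 tested, 8 were called higher and 10 lower in neurons than in differentiating progenitors, with a median of -0.42, and 8 and 9 in neurons against proliferating progenitors, with a median of 0.04. The spindle assembly factor Tpx2 fell to 196 ± 66.4 in neurons, against 5011 ± 448 in differentiating progenitors (log2 change -4.72 ± 0.20, limma adjusted p = 1.56e-07), with the kinase Aurka (-4.46 ± 0.20), Kif11 (-5.37 ± 0.28) and the cortical spindle anchor Gpsm2 (-2.47 ± 0.11). Among the 8 that rose were Pafah1b1, which encodes Lis1, the dynein heavy chain gene Dync1h1, the dynactin subunit gene Dctn1 (1.10 ± 0.14), the microtubule end binder Mapre1, the kinesin gene Kif2a and the calmodulin genes Calm2 and Calm3 (1.01 ± 0.09). Calm2 and Calm3 encode the same protein, and reads could be divided between near-identical copies. Differentiating against proliferating progenitors had 3 higher and 0 lower (0 at an unadjusted p under 0.05, and 0 in the authors' deposited table), and with the replicate block 7 and 1. The 3 of 20 are near the 13.8% of all genes called higher and show nothing about the list. Numa1, which links dynein to the cell cortex, rose to 13887 ± 515 in differentiating progenitors, against 8676 ± 294 in proliferating progenitors (log2 change 0.68 ± 0.07, limma adjusted p = 0.000246). Calm2 (0.64 ± 0.16) and Dync1h1 (0.36 ± 0.10) rose, but neither was called without proliferating progenitor library 1 or 3 or differentiating progenitor library 2 or 3, nor Dync1h1 without neuron library 3 (limma adjusted p 0.0539 to 0.0787 for Calm2 and 0.0507 to 0.116 for Dync1h1).

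Condensin and checkpoint genes mostly fell in neurons. The list was taken for the roles of Mcph1 on condensin II and in the checkpoint, and it also holds condensin I subunits such as Ncaph. Of 16 tested, 2 were called higher and 14 lower in neurons than in differentiating progenitors, with a median of -2.01, and 2 and 14 in neurons against proliferating progenitors. The condensin II subunit Ncapg2 fell to 192 ± 7.6 in neurons, against 2290 ± 274 in differentiating progenitors (log2 change -3.56 ± 0.12, limma adjusted p = 5.79e-08), with the core subunits Smc2 (-2.71 ± 0.09) and Smc4 (-3.28 ± 0.12). The checkpoint genes Trp53bp1 (0.36 ± 0.07) and Atrip (0.40 ± 0.08) rose, but with total-sum scaling neither was called (0.15, limma adjusted p = 0.0904, and 0.18, limma adjusted p = 0.0922). Trp53bp1 was also the 1 gene of the list that rose in differentiating against proliferating progenitors (0.78 ± 0.07, limma adjusted p = 0.000108), with 0 lower (2 at an unadjusted p under 0.05, and 0 in the authors' deposited table), and with the replicate block 2 were higher and 2 lower.

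Cell cycle lists give the scale for these falls. All 20 G2/M genes tested were lower in neurons than in differentiating progenitors, with a median of -4.94, and 0 were called in either direction between the progenitor groups (0 at an unadjusted p under 0.05, and 0 in the authors' deposited table), with a median of 0.27. Ccnb2, a mitotic cyclin, averaged 77.3 ± 4.5 in neurons and 1111 ± 68.2 in differentiating progenitors (log2 change -3.83 ± 0.14, limma adjusted p = 9.72e-08), and Ube2c (log2 change -4.71), Anln (-4.41) and Cdc20 (-4.38) fell too. All 20 G1/S and replication genes tested also fell in neurons, with a median of -3.17, and 8 of them were lower in differentiating than in proliferating progenitors, with 0 higher (0 at an unadjusted p under 0.05, and 0 in the authors' deposited table) and a median of -0.47. With the replicate block 14 were lower. Among the 8 were the replication licensing genes Mcm2 (-0.51 ± 0.08), Mcm4 (-0.74 ± 0.08) and Cdt1 (-0.76 ± 0.16) and the DNA methylation factor Uhrf1 (-0.72 ± 0.14), a direction that Cenpj and Cdk5rap2 did not share.

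As a share of the mean in proliferating progenitors, G2/M genes kept a median of 4.25% in neurons, with a range of 2.56% to 5.72%, and the 8 microcephaly genes kept from 3.34% for Stil to 101% for Cenpj. Aspm and Stil lay within the range of the G2/M list, and the other 6 lay above it, with Wdr62 the nearest at 14.5%. The median kept was 8.38% for G1/S genes, 29.3% for condensin and checkpoint genes, 46.0% for other microcephaly genes, 63.3% for other centriole duplication genes, 75.2% for pericentriolar material genes and 103% for spindle pole and orientation genes. Cep135 (31.3%) and Cep152 (39.6%) lay below the median of the centriole duplication list, and Cdk5rap2 (80.9%) lay above that of the pericentriolar material. These shares are descriptions without a test.

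**Figure D4:**
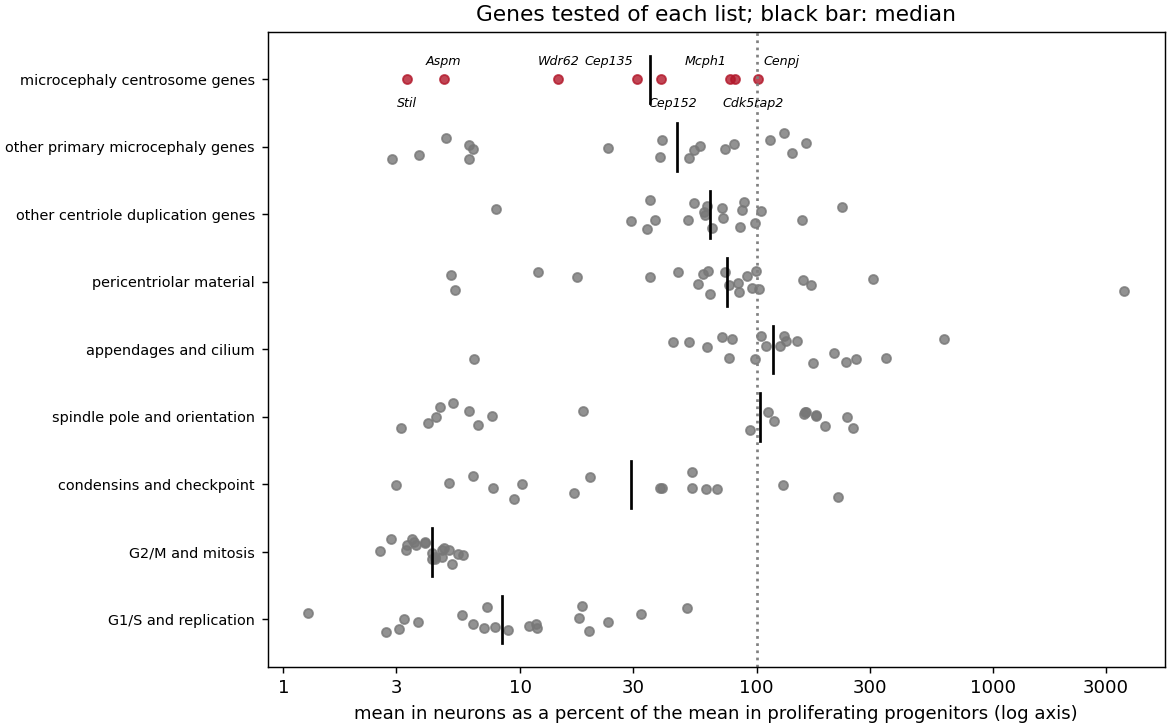
Mean in neurons as a percent of the mean in proliferating progenitors (log x axis), 1 point for each gene of a list, with the list's median as a black bar and equal levels as a dotted line. The 8 microcephaly genes span 3.34% to 101%, while the G2/M genes lie between 2.56% and 5.72%.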

How the data were processed

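The authors' deposited table gives 1 value per gene and library, a normalised whole-number read count, entered here as a score because the authors scaled it. It also holds the authors' fold, a ratio of deposited group means, and an adjusted p-value for each pair of groups. The submitters' processing notes name CASAVA 1.8.0, BWA, bedtools 2.11, DESeq 1.8.1 and mm9, with no role for each, and the table uses Ensembl 61. Each library pooled embryos, and p-values measure only the spread between these pools.

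Genes that reached 10 in 3 or more libraries entered the test, made with limma 3.58.1 in R 4.3.3 (intensity trend, log2(value + 1), 3 group means over 9 libraries, 6 residual degrees of freedom), with Benjamini-Hochberg adjustment at 0.05 over all genes tested. A fold change on this scale understates the change of low genes. The fit was also run on simulated data with independent libraries and 1 spread for all genes. That setting differs from these data, so it is no check on libraries tied by replicate number or on genes of unequal spread. Figures and summaries used Python 3.11.15, pandas 2.3.3 and matplotlib 3.10.9. After removal of group means, the 9 pairs of libraries with the same replicate number in different groups correlated at 0.507 to 0.767 across genes. The 18 other pairs lay at -0.64 to 0.428. Removing a mean of only 3 libraries forces some negative values among these other pairs where the pairs of the same number are positive. It does not fix which numbers they fall on. Pairs of a number 1 library with a number 2 or 3 library were all negative (-0.64 to -0.545). Those of number 2 with number 3 were all positive (0.272 to 0.428). Library 1 of the 3 groups thus stood apart as a set, and the cause was not tested. The numbers pair the libraries, and a fit with the replicate number as a block was an alternative. Others were each library left out, replicates 2 and 3 only, pseudocounts of 8 and 0.5, no filter, a filter at 50, total-sum and trimmed mean of M values scaling, no intensity trend, and only the groups compared.

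The 8 genes and all lists were chosen with earlier results of these data known. Named from each list were up to 4 genes with the smallest adjusted p in a comparison and any that went against their list. Nearest courses were the 2 genes with the smallest difference. A few genes that these rules name are not reported here.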

Additional observations from a re-analysis of the deposited data

How the results depend on the processing

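The replicate block raised the genes called in differentiating against proliferating progenitors to 7282 (3793 higher and 3489 lower), against 3944 (2186 and 1758), and those called for the second step minus the first to 8150 (3880 and 4270), against 4977 (2411 and 2566). With replicates 2 and 3 only, 2651 genes were lower in differentiating than in proliferating progenitors, and with 1 library left out 1060 to 1877 were, of which the counts without proliferating progenitor library 2 or 3 (1060 and 1147) and differentiating progenitor library 2 or 3 (1074 and 1109) were the low ones. All other counts over all genes tested, and those of the 8 genes, stayed within 1.5 times under the alternatives run. Small counts in the other lists moved further in differentiating against proliferating progenitors: with replicates 2 and 3 only, 14 G1/S genes were lower, against 8, and 4 pericentriolar material genes, against 1, with total-sum scaling 3 centriole duplication genes were lower, against 1, and with 1 library left out 1 to 5 spindle pole genes were higher, against 3. Under each library left out, 2 of the 8 genes were called higher in differentiating than proliferating progenitors, where 1568 to 2187 of all genes tested were. In the same fits 7 to 8 were called lower in neurons than differentiating progenitors, where 3718 to 4209 of all genes tested were.

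Directions turned only for changes that were not called with all libraries. With replicates 2 and 3 only, the log2 change in differentiating against proliferating progenitors was -0.10 for Mcph1 and -0.10 for Wdr62, and with 1 library left out it ran from -0.081 to 0.20 for Mcph1, from -0.088 to 0.27 for Wdr62 and from -0.033 to 0.27 for Cep152. Cenpj in neurons against proliferating progenitors was -0.27 with total-sum scaling and -0.046 to 0.057 with 1 library left out. The cause was not tested. Of 70 results on named list genes, 8 were lost without some library, 4 with total-sum scaling and 0 with the block, and 0 reversed. With 3 pools a group, intervals are wide for genes that vary between pools, such as Aspm and Stil. Depth in raw reads is unknown, since values were scaled before deposit. Some of the smallest whole numbers never occur as a value in library 1. The count of such missing numbers was 8 in proliferating progenitors, 6 in differentiating progenitors and 5 in neurons. In libraries 2 and 3 of each group none of these small numbers was missing. Such gaps arise when whole counts are scaled up, but a difference in raw depth was not tested.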

Other observations

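Genes of the centriolar appendages and the cilium, which anchor the mother centriole to the membrane and build the cilium on it, were called about as often as all genes. Of 20 tested, 7 were higher and 6 lower in neurons than in differentiating progenitors, where 27.6% of all genes were higher and 26.4% lower, with a median log2 change of 0.01 against -0.01 over all genes, and as a median they kept 117% of the mean in proliferating progenitors. Nin, ninein, which anchors microtubules at the subdistal appendages, rose to 6717 ± 1164 in neurons, against 747 ± 227 in differentiating progenitors (SD, n = 3 each; log2 change 3.19 ± 0.20, limma adjusted p = 1.46e-06). Kif3a, a motor of transport into the cilium (1.35 ± 0.11), and Cep170, a subdistal appendage protein (1.06 ± 0.12), rose too. Kif24, a kinesin that holds cilium formation back, fell to 54 ± 7.9 in neurons, against 698 ± 176 in differentiating progenitors (log2 change -3.65 ± 0.20). Ninl (-0.79), Cep290 (-0.83), Cep89 (-0.99), Odf2 (-0.75) and Cep83 (-0.39) fell as well, but Cep83 was not called without differentiating progenitor library 2 or 3 or neuron library 1 (limma adjusted p 0.0589 to 0.0794).

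In differentiating against proliferating progenitors 3 of the 20 were called higher and 0 lower (2 at an unadjusted p under 0.05, and 0 in the authors' deposited table), where 13.8% of all genes were higher and 11.1% lower. With the replicate block 8 were higher and 2 lower, where 24.0% of all genes were higher and 3489 of 15828 lower. Cep170 (0.76 ± 0.12, limma adjusted p = 0.00145) and Ttbk2, the kinase that starts cilium assembly (0.70 ± 0.13, limma adjusted p = 0.00368), rose. Talpid3 rose (0.57 ± 0.14, limma adjusted p = 0.0194), but was not called without proliferating progenitor library 1 or differentiating progenitor library 2 or 3 (limma adjusted p 0.0562 to 0.0768).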
